A study of Mus musculus with 14 samples.

Results

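The mouse angiogenins (*Ang*, *Ang2*, *Ang4*), their genomic neighbor *Rnase4*, the lectin intelectin 1 (*Itln1*), the resistin-like protein *Retnlb*, the antibacterial lectins *Reg3b* and *Reg3g*, and lysozyme *Lyz1* are described here across colon RNA from 14 arrays. The 9 genes were picked with their values in the 4 groups already known, so their levels and differences are given as a description with no test. Every probe whose RefSeq accession maps to 1 of the 9 symbols was taken, which gave 10 probes (2 for *Rnase4*) of 41174 mouse probes and 9 of 19096 gene symbols on the array. The study asked how the glucocorticoid receptor (GR) of the intestinal epithelium acts in the colon. Male C57BL/6 mice on chow diet were either Flox, which carry the loxP-flanked GR gene without Cre, or GR iKO, in which Villin-cre removes GR in the intestinal epithelium. All had their adrenal glands taken out (ADX) 2 weeks earlier, at 6 to 8 weeks of age per the labels, and were 8 to 10 weeks old at harvest; the study's methods give an older age at ADX. Colon was collected 6 hours after dexamethasone (DEX, a synthetic glucocorticoid, 1 mg/kg) or saline vehicle (PBS). The groups held 4 Flox PBS, 3 Flox DEX, 3 GR iKO PBS and 4 GR iKO DEX arrays. Cre driven by Villin spares muscle, stroma and immune cells, and RNA came from colon tissue that holds all of them.

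Goblet and Paneth cells of the gut epithelium release proteins that act on microbes at the mucosal surface. *Ang4* belongs to the RNase A family and is a secreted antimicrobial protein of the mouse gut, *Itln1* binds microbial sugars, *Retnlb* is a goblet cell product that acts on bacteria, *Reg3b* and *Reg3g* are C-type lectins that kill or hold off bacteria, and *Lyz1* is the lysozyme of Paneth cells, while *Lyz2* is the lysozyme of myeloid cells. *Ang* and *Rnase4* lie at a shared locus and can be transcribed from a shared promoter.

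Levels are log2 signal minus the 75th percentile of the same array, so 0 marks that percentile. Between 28281 and 30501 probes stood well above their local background on each array. A probe was called when its Benjamini-Hochberg adjusted p in a limma fit over all probes was under 0.05 and its change at least 2-fold. Each group sat on its own slide and scan run (4 slides, 4 scan runs), so in each comparison the slide cannot be told apart from the group. The comparisons also share samples: each group enters 2 of the 4 differences and the interaction, and the number of arrays limits the precision.

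The labels were first checked on marker genes. All 7 epithelial and all 6 absorptive colonocyte genes on their lists were well above background on every array, with summed log2 levels of 9.67 to 9.93 and 9.45 to 9.89. *Nr3c1*, which encodes GR, read 1.33, 1.40, 1.38 and 1.22 in Flox PBS and 1.05, 1.06 and 1.25 in Flox DEX. In GR iKO PBS it read 0.71, 0.36 and 0.19, and in GR iKO DEX -0.20, -0.15, -0.03 and -0.08, so every GR iKO array lay below every Flox array. The difference between genotypes was -0.91 (SE 0.12) under PBS, with an adjusted p of 0.0138 but less than 2-fold, and -1.24 (SE 0.12) under DEX, which was called (adjusted p = 0.00331); whether the probe lies in the deleted part is not known. Probe A_52_P254174 of the gene, at another place on the array, was called in both, at -1.15 (SE 0.15, adjusted p = 0.0171) and -1.26 (SE 0.15, adjusted p = 0.00846). A_52_P63106 was called under DEX at -1.09 (SE 0.13, adjusted p = 0.00811) and not under PBS at -0.87, and A_51_P355693 in neither, at -1.08 (SE 0.49, adjusted p = 0.633) under PBS and -0.34 (SE 0.49, adjusted p = 0.781) under DEX. Of 9 measured glucocorticoid response genes, 6 rose with DEX in Flox and 3 in GR iKO. *Fkbp5*, a GR co-chaperone, rose by 3.64 (SE 0.34, adjusted p = 0.000716, above every PBS array in 3 of 3) in Flox, and its response in GR iKO was smaller by a tested interaction of -2.70. *Sgk1*, a kinase that regulates epithelial sodium transport, rose by 3.21 (SE 0.32, adjusted p = 0.000911) in Flox, with an interaction of -2.54. In GR iKO *Fkbp5* was not called at 0.95 (SE 0.34, adjusted p = 0.0890), but 1 of its other 2 probes, A_52_P481493, was at 1.51 (SE 0.44, adjusted p = 0.0473), and the third, A_52_P337899, was not at 0.83 (SE 0.32, adjusted p = 0.116). The interaction call was lost in 17 of 23 other settings for *Fkbp5* and in 16 of 23 for *Sgk1*, each of the 4 GR iKO DEX arrays left out among them, with the same sign in all settings. The other 2 *Fkbp5* probes were not called in the interaction, at -2.47 (SE 0.45, adjusted p = 0.0531) and -1.62 (SE 0.63, adjusted p = 0.321). *Tsc22d3*, the anti-inflammatory GILZ, rose by 1.90 in Flox and 1.62 in GR iKO, and *Pdk4*, a metabolic kinase, rose by 3.34 and 3.50. *Mt1* and *Mt2*, metallothioneins, rose by 1.63 and 2.51 in Flox; in GR iKO *Mt2* rose by 1.00, a call lost in 17 of 26 settings, each GR iKO array left out among them, and *Mt1* was already 2.60 higher than in Flox under PBS, a called difference.

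GR iKO PBS replicate 2 stood apart in genes that mark position along the gut. *Hoxb13*, a distal colon transcription factor, read -3.98 there, against 4.30 and 4.52 on the other GR iKO PBS arrays and 3.58 to 4.39 in Flox PBS. It read 2.55, 3.39 and 2.21 in Flox DEX and 3.78, -0.76, 2.58 and 1.64 in GR iKO DEX. The 4 measured distal colon genes summed to a log2 level of -2.06 on GR iKO PBS replicate 2 and 0.02 on GR iKO DEX replicate 2, the 2 lowest values. The 8 small intestine genes summed to 7.41 and 7.59 on the same arrays, against 5.36 to 7.34 on the others. Nearly all of that sum was 1 gene, *Fabp2*, at 7.38 and 7.58 on those 2 arrays. *Mptx1*, a pentraxin of gut secretory cells, read 1.52 on GR iKO PBS replicate 2 and 7.75 to 8.51 on the 11 other arrays with a usable spot. Exocrine pancreas genes varied as well: the 9 genes, of which 6 to 9 were well above background on each array, summed to 10.64 and 10.89 on Flox DEX replicates 1 and 2, 9.19 on Flox PBS replicate 2, and 7.70 and 7.02 on GR iKO DEX replicates 2 and 4, against 3.46 to 5.70 on the other 9 arrays. These values are set beside the results that move with them.

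The member probes that met the call threshold did so in a single comparison. With DEX in GR iKO, 5 of 10 member probes (*Ang*, *Ang2*, *Ang4*, *Itln1* and *Retnlb*) met it as higher and 1 (*Lyz1*) as lower, beside 5.05% of all probes (2079 of 41174), and the arrays of both groups did not overlap for those 6, beside 25.2% of all probes. With DEX in Flox no member probe met it, beside 1.57% of all probes (646), and 2 did not overlap, beside 19.9% of all probes. Between genotypes no member probe met it under PBS, beside 0.129% (53), or under DEX, beside 0.160% (66). There 1 member probe did not overlap under PBS, beside 6.82% of all probes, and 7 under DEX, beside 14.4%. None met it in the genotype by DEX interaction, beside 0.236% of all probes (97). Since the genes were chosen on these groups, nothing is read from these counts. At an unadjusted p under 0.05, limma gave 7696 of all probes with DEX in Flox, 11385 with DEX in GR iKO, 3205 between genotypes under PBS, 5522 under DEX and 4912 in the interaction. The called count with DEX in Flox was 222 without Flox DEX replicate 1, 402 without Flox DEX replicate 2, 352 without Flox PBS replicate 3 and 402 without Flox PBS replicate 4. With single arrays left out, the genotype counts ran from 22 (without Flox PBS replicate 3) to 179 (without GR iKO PBS replicate 2) under PBS and from 19 (without Flox DEX replicate 1) to 138 (without Flox DEX replicate 4) under DEX. The interaction count ran from 37 (without GR iKO DEX replicate 2) to 213 (without GR iKO PBS replicate 2).

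**Figure D1:**
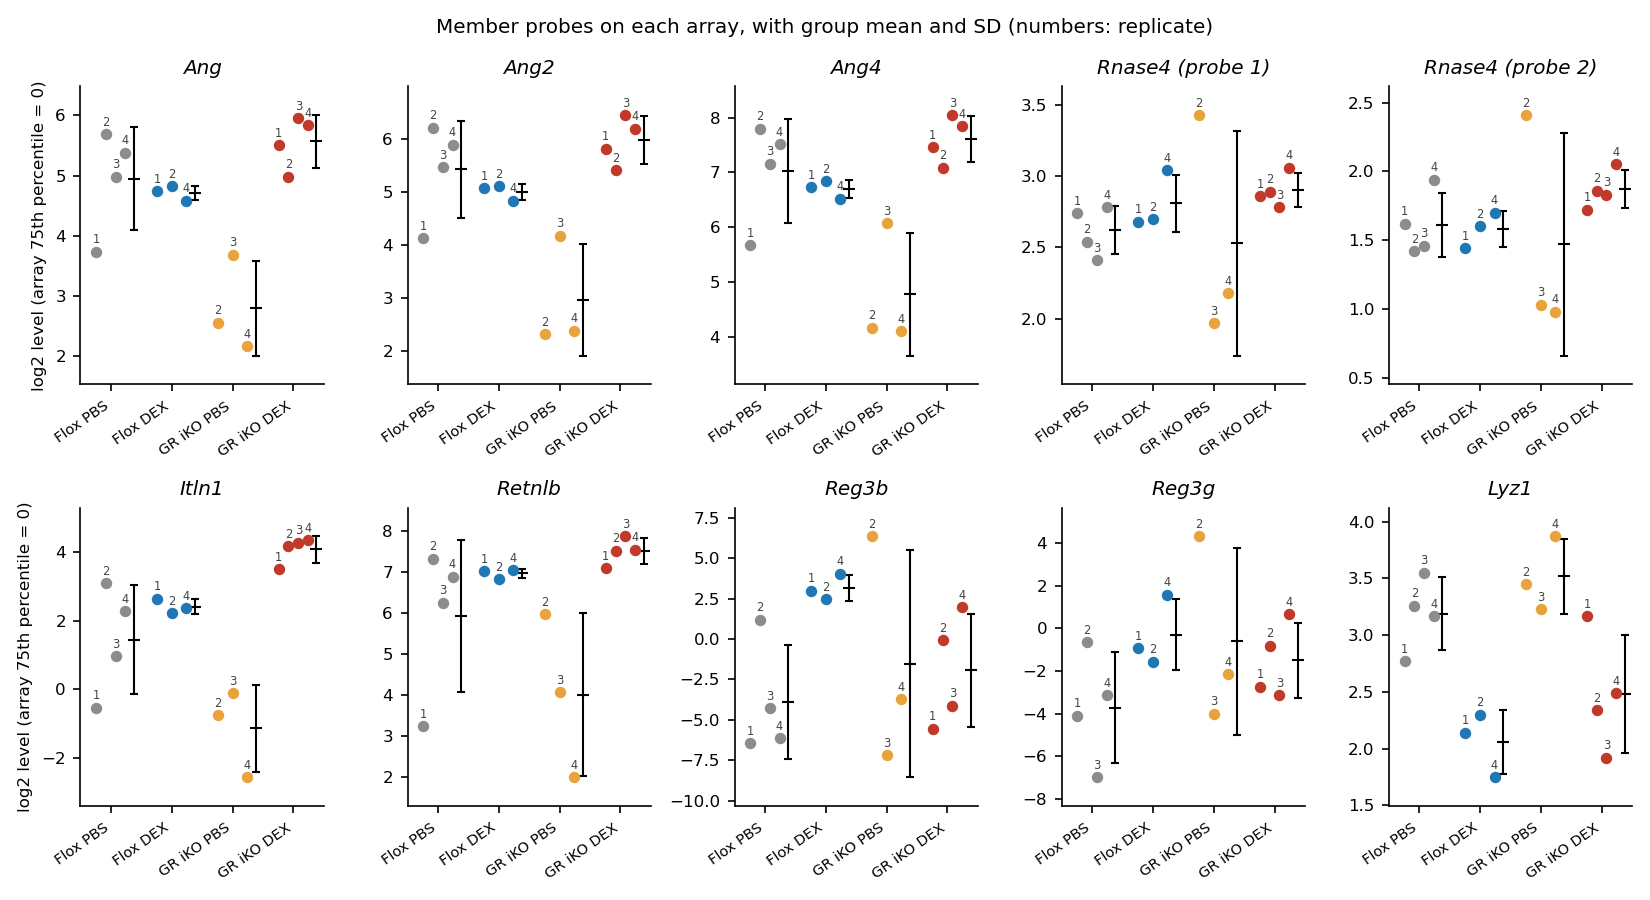
Log2 level of each member probe on each array (array 75th percentile = 0), by group, with replicate numbers beside the points and the group mean with its SD as a black bar. *Ang*, *Ang2*, *Ang4*, *Itln1* and *Retnlb* are lowest in GR iKO PBS and Flox PBS replicate 1, *Lyz1* is lower with DEX in both genotypes, and *Reg3b* spans -7.17 to 6.34; *Rnase4* probe 1 is A_51_P237383 and probe 2 is A_52_P262511.

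Of the angiogenins, *Ang* (probe A_51_P391159) encodes the namesake ribonuclease. The *Ang* probe read 3.73, 5.69, 4.98 and 5.38 in Flox PBS and 4.74, 4.82 and 4.58 in Flox DEX. It read 2.55, 3.68 and 2.16 in GR iKO PBS and 5.51, 4.98, 5.95 and 5.84 in GR iKO DEX. All 3 GR iKO PBS arrays lay under every other array, with Flox PBS replicate 1 just above them. *Ang2* (A_51_P349888), a mouse paralog, read 4.12, 6.21, 5.47 and 5.89 in Flox PBS, 5.07, 5.10 and 4.83 in Flox DEX, 2.32, 4.17 and 2.38 in GR iKO PBS, and 5.81, 5.41, 6.45 and 6.19 in GR iKO DEX. *Ang4* (A_52_P98778), the antimicrobial paralog, read 5.67, 7.80, 7.16 and 7.51 in Flox PBS, 6.73, 6.84 and 6.52 in Flox DEX, 4.17, 6.08 and 4.10 in GR iKO PBS, and 7.46, 7.09, 8.05 and 7.85 in GR iKO DEX. For both paralogs the lowest arrays were GR iKO PBS replicates 2 and 4, and GR iKO PBS replicate 3 overlapped Flox PBS replicate 1. In this bulk tissue, fewer cells that make an RNA and less RNA per cell cannot be told apart.

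The 3 angiogenins differed between groups by nearly the same amount. With DEX in GR iKO, *Ang* was higher by 2.78 (SE 0.45, 6.85-fold, 4 against 3 arrays), *Ang2* by 3.01 (SE 0.52, 8.05-fold) and *Ang4* by 2.83 (SE 0.54, 7.11-fold). With DEX in Flox, the differences were -0.23 (SE 0.45) for *Ang*, -0.42 (SE 0.52) for *Ang2* and -0.34 (SE 0.54) for *Ang4*, all within the spread of the Flox PBS arrays (SD 0.86, 0.92 and 0.95). Without Flox PBS replicate 2 they were 0.01, -0.16 and -0.08, and without Flox PBS replicate 1 -0.64, -0.86 and -0.79. Under PBS the GR iKO mean was below the Flox mean by more than the SD of either group: the difference was -2.15 (SE 0.45) for *Ang*, -2.46 (SE 0.52) for *Ang2* and -2.25 (SE 0.54) for *Ang4*. Under DEX the GR iKO arrays lay above the Flox arrays with no overlap, by means of 0.86, 0.97 and 0.92. The response in GR iKO minus that in Flox came to 3.01 (SE 0.64), 3.43 (SE 0.74) and 3.16 (SE 0.76). The spread within groups also differed: in Flox DEX the 3 arrays of *Ang4* spanned 0.32, while the 4 Flox PBS arrays spanned 2.13.

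The angiogenins moved together from array to array. Over the 14 arrays Pearson r was 1.00 for *Ang2* with *Ang4* (Spearman rho 0.99), 0.99 for *Ang* with *Ang2* (rho 0.98) and 0.99 for *Ang* with *Ang4* (rho 0.99), among 45 pairs of member probes computed. Within groups, as deviations from the group means, r stayed at 1.00, 0.98 and 0.98. The gap between the *Ang2* and *Ang4* log2 values had an SD of 0.10 over the arrays. These 3 genes are close paralogs, the files hold no probe sequences, and how far a probe for one reads RNA of another was not tested.

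*Rnase4*, whose transcripts can start at the same site as those of *Ang*, differed less between the group means than *Ang*. Probe A_51_P237383 read 2.74, 2.54, 2.41 and 2.78 in Flox PBS, 2.68, 2.70 and 3.04 in Flox DEX, 3.43, 1.97 and 2.18 in GR iKO PBS, and 2.86, 2.89, 2.78 and 3.06 in GR iKO DEX. Probe A_52_P262511 read 1.62, 1.42, 1.46 and 1.94 in Flox PBS, 1.44, 1.60 and 1.70 in Flox DEX, 2.41, 1.03 and 0.98 in GR iKO PBS, and 1.72, 1.86, 1.83 and 2.05 in GR iKO DEX. GR iKO PBS replicate 2 was the highest of the 14 arrays for both probes and replicates 3 and 4 of that group were the lowest, so the group held both ends of the range. Its SD was 0.79 and 0.81, against 0.12 to 0.23 in the other groups. With DEX in GR iKO the differences were 0.37 (SE 0.28) and 0.39 (SE 0.28); without GR iKO PBS replicate 2 they were 0.83 and 0.86, and at their lowest with another array of that group left out 0.09 (replicate 3) and 0.15 (replicate 4). Under PBS the genotypes differed by -0.09 (SE 0.28) and -0.13 (SE 0.28), and by -0.55 and -0.60 without GR iKO PBS replicate 2. The response in GR iKO minus that in Flox was 0.18 (SE 0.39) and 0.42 (SE 0.40), and 0.64 and 0.89 without that array. The 2 probes followed each other (r = 0.94, rho = 0.92, n = 14). *Ang* and the 2 *Rnase4* probes gave r of 0.17 and 0.25 over the 14 arrays, and 0.62 and 0.76 without GR iKO PBS replicate 2, so the weak relation rests on that array.

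**Figure D2:**
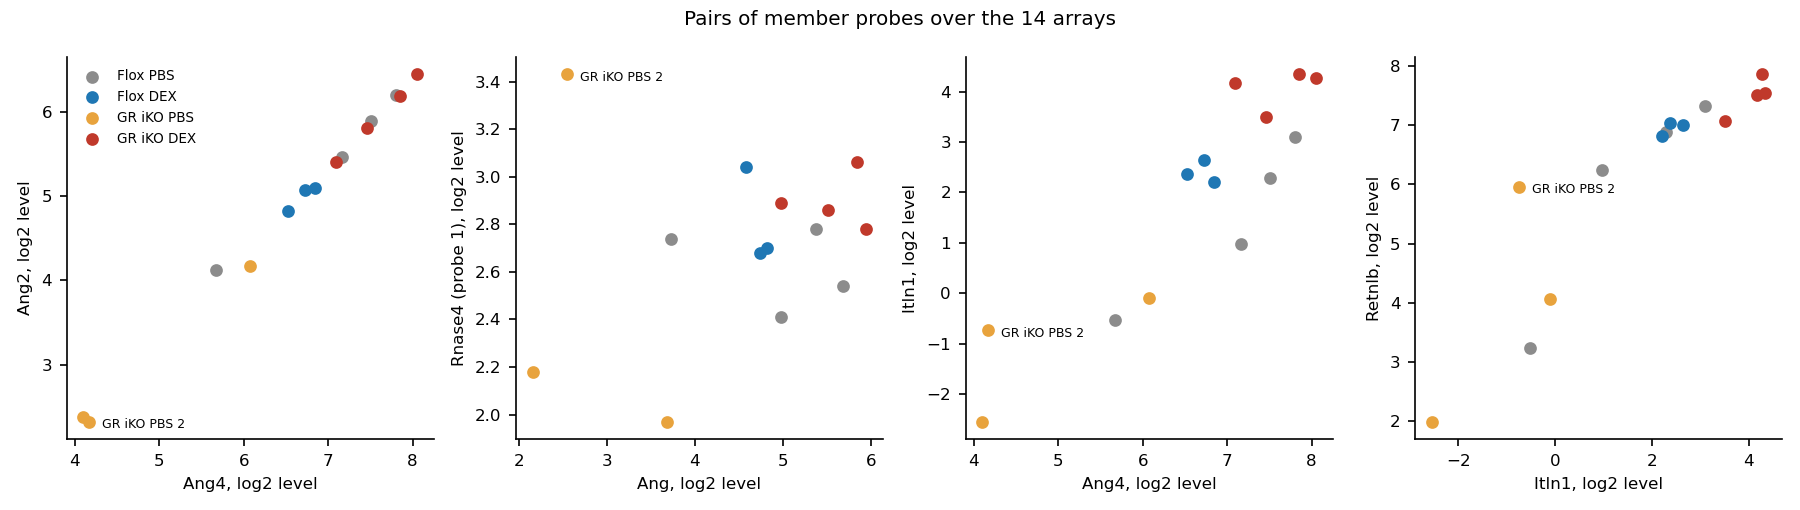
Log2 levels of 4 pairs of member probes over the 14 arrays, colored by group, with GR iKO PBS replicate 2 marked. *Ang2* and *Ang4* lie on a line (r = 1.00), and *Itln1* follows *Ang4* (r = 0.90) and *Retnlb* (r = 0.91). *Rnase4* (probe A_51_P237383) and *Ang* give r = 0.17, and 0.62 without the marked array.

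The RefSeq promoter table (GRCm38.p6) held 7 of the 9 genes, in 8 entries of 250 bases before a start site; *Ang2* and *Retnlb* had no entry. The windows are shown because *Ang* and *Rnase4* share 1 of them, chr14:51090827-51091076 on the + strand, and *Rnase4* has another at chr14:51095750-51095999 on the + strand, while *Ang4* starts behind chr14:51773591-51773840 on the - strand. Both strands were searched and capitals mark the matches. The letters AGAACA are those of a glucocorticoid response half-site, read as TGTTCT on the opposite strand. The letters TTCNNNGAA are those of a STAT site and read the same on either strand. The letters of a TATA box, TATAAA, become TTTATA on the opposite strand. AGAACA was present in 16.0% of 32536 distinct windows of this length, TTCNNNGAA in 7.04% and TATAAA in 12.3%; the palindrome of that half-site with a gap of 3 bases, which contains it, was present in 3 of them and in no member window. A match is a description, not a site or a cause.
Ang and Rnase4, shared window: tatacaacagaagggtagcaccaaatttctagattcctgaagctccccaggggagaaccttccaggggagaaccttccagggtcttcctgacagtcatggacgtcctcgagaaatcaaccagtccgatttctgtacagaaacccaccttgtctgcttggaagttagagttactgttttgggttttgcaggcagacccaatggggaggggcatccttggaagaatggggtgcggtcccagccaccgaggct
Rnase4, its other window: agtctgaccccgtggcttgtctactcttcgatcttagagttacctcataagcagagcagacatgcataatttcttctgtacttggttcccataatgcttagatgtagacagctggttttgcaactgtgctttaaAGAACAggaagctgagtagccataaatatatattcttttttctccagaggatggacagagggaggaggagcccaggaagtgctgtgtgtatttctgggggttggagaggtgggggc
Ang4: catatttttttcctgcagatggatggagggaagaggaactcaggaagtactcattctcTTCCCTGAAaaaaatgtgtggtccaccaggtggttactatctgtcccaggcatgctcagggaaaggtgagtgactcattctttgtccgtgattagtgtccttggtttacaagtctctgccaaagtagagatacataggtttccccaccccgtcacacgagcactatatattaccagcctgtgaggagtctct
The shared window held none of the motifs, the other *Rnase4* window held AGAACA at -116, and the *Ang4* window held TTCNNNGAA from -192 to -184, counted back from -1 at the last base before the start.

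*Itln1* (A_51_P147987), the lectin, had the largest DEX difference in GR iKO among the member probes. It read -0.53, 3.09, 0.97 and 2.28 in Flox PBS and 2.64, 2.21 and 2.37 in Flox DEX. It read -0.74, -0.10 and -2.55 in GR iKO PBS and 3.50, 4.16, 4.27 and 4.34 in GR iKO DEX. The GR iKO DEX arrays lay above all 10 others, and 2 of the 3 GR iKO PBS arrays lay below all others, with Flox PBS replicate 1 among the GR iKO PBS values. The mean was higher with DEX by 5.19 (SE 0.75, 36.6-fold) in GR iKO and by 0.96 (SE 0.75) in Flox, where the SD of the PBS arrays was 1.58. The Flox difference was 0.30 without Flox PBS replicate 1. Under PBS the difference between genotypes was -2.58 (SE 0.75), under DEX it was 1.66 (SE 0.75), and the responses differed by 4.24 (SE 1.06). In the 250 bases before its start (chr1:171535295-171535544, - strand) none of the 3 motifs occurred.

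*Retnlb* (A_51_P428360), the goblet cell resistin-like protein, followed *Itln1*. It read 3.23, 7.32, 6.24 and 6.88 in Flox PBS, 7.01, 6.82 and 7.03 in Flox DEX, 5.96, 4.06 and 1.99 in GR iKO PBS, and 7.08, 7.51, 7.86 and 7.54 in GR iKO DEX. PBS arrays of both genotypes were spread over several log2 units and overlapped, while the 7 DEX arrays lay within 6.82 to 7.86. With DEX the mean was higher by 3.50 (SE 0.95, 11.3-fold) in GR iKO and by 1.04 (SE 0.95) in Flox; under PBS the genotypes differed by -1.92 (SE 0.95), less than the SD of GR iKO PBS (1.99). Single arrays moved these values: the GR iKO difference was 2.49 without GR iKO PBS replicate 4 and 4.48 without replicate 2 of that group, and the Flox difference was 0.14 without Flox PBS replicate 1. The difference between genotypes under PBS ran from -2.90 without GR iKO PBS replicate 2 to -0.91 without GR iKO PBS replicate 4. The 2 genes correlated over the 14 arrays (r = 0.91, rho = 0.97), within groups (r = 0.85) and without the 2 arrays farthest from the *Itln1* median (r = 0.92). *Ang4* and *Itln1* gave r of 0.90 (rho 0.84) and 0.81 within groups.

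Goblet cell genes outside the members shifted little beside these differences. None of 12 measured goblet cell genes was called in any comparison, and their median difference with DEX was 0.26 in GR iKO and 0.07 in Flox, against 0.10 and 0.06 for all probes. *Clca1*, a secreted goblet cell protein and the most abundant gene of the list, differed by 0.34 (SE 0.11, adjusted p = 0.0761) in GR iKO, *Muc2*, the gel-forming mucin, by 0.83 (SE 0.25, adjusted p = 0.0579), and *Fcgbp*, a mucus component, by 0.93 (SE 0.27, adjusted p = 0.0451), which passed the p threshold but not 2-fold. The summed goblet level was 10.02, 10.12 and 10.21 in GR iKO PBS and 10.52, 10.33, 10.73 and 10.63 in GR iKO DEX, so it moved in the same direction as *Itln1* with no overlap; its part in the *Itln1*, *Retnlb* and angiogenin differences was not tested. Of the 12 genes 9 were higher and 3 lower. The exocrine pancreas sum moved with the same comparison as well, from 3.46, 4.48 and 4.43 in GR iKO PBS to 5.19, 7.70, 5.70 and 7.02 in GR iKO DEX with no overlap and a list median of 4.44, and its part was not tested either. The tuft cell sum went from 0.38, 0.59 and 0.21 to 0.94, 0.72, 1.12 and 0.65 and the crypt stem and cycling cell sum from 3.83, 3.30 and 3.90 to 3.99, 4.15, 4.25 and 4.31, both with no overlap. The enteroendocrine sum went the other way, from 7.50, 7.90 and 7.72 to 7.43, 6.84, 7.24 and 6.83, also with no overlap, and the part of these 3 was not tested. Under PBS 11 of 12 goblet genes were lower in GR iKO than in Flox (mean sums 10.12 and 10.36). So were 9 of 9 exocrine pancreas genes (median -3.04) and 4 of 4 distal colon genes (median -1.35). Among the PBS arrays the distal colon sum was low only on GR iKO PBS replicate 2, at -2.06. It was 4.35 and 4.56 on replicates 3 and 4 of that group, against 3.64 to 4.45 in Flox PBS. The pancreas sum was 9.19 on Flox PBS replicate 2, against 4.38, 5.06 and 4.78 on the other Flox PBS arrays. The part of these lists in the lower angiogenin, *Itln1* and *Retnlb* means under PBS was not tested. The summed absorptive colonocyte level was 9.82, 9.51 and 9.45 in GR iKO PBS and 9.50, 9.89, 9.71 and 9.72 in GR iKO DEX.

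**Figure D3:**
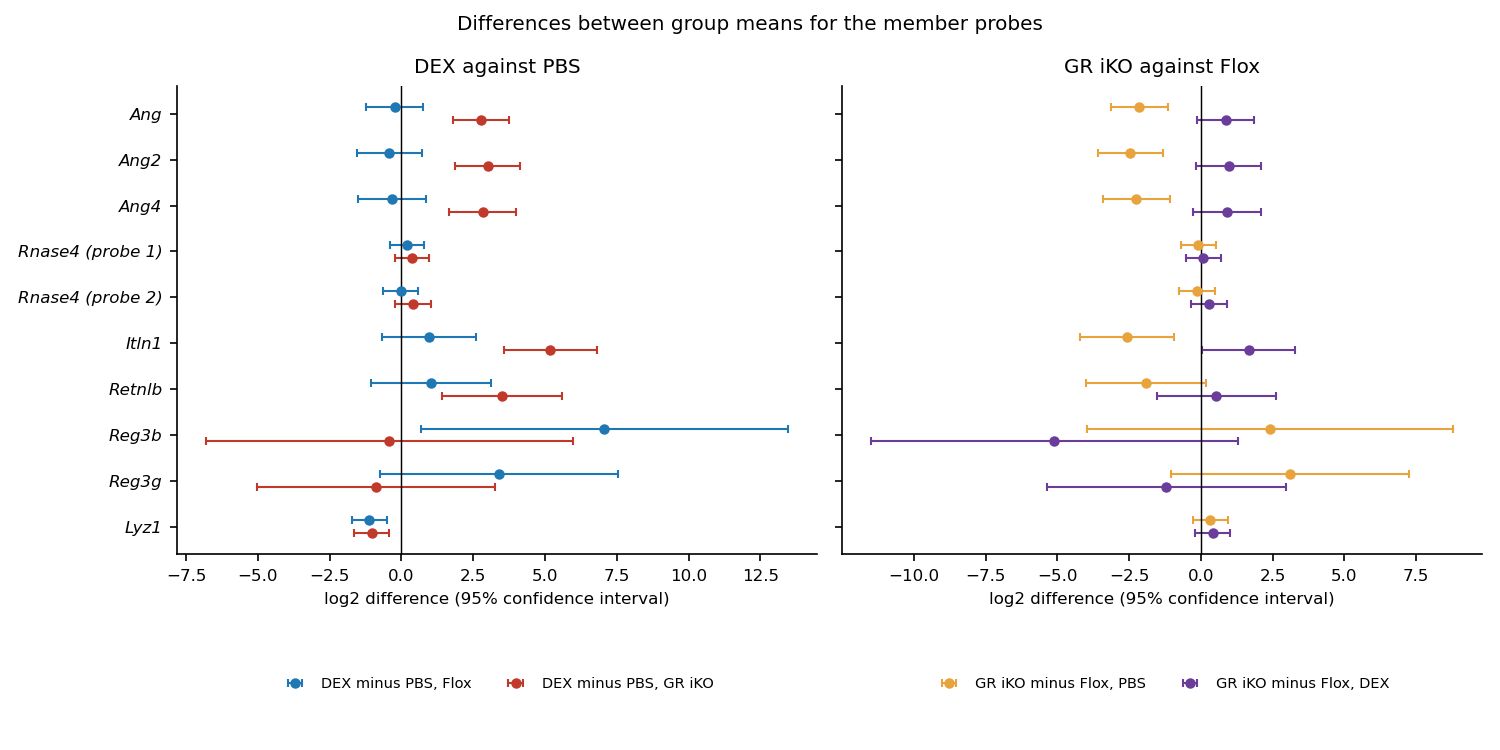
Log2 differences between group means for the 10 member probes with 95% confidence intervals from the limma fit, DEX minus PBS on the left and GR iKO minus Flox on the right. *Itln1* with DEX in GR iKO is at 5.19, *Lyz1* with DEX is at -1.12 in Flox and -1.04 in GR iKO, and the intervals of *Reg3b* are the widest; *Rnase4* probes 1 and 2 are A_51_P237383 and A_52_P262511.

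The probe for *Lyz1* (A_52_P582059), the Paneth cell lysozyme, read lower with DEX in both genotypes. It read 2.77, 3.26, 3.55 and 3.17 in Flox PBS and 2.14, 2.30 and 1.75 in Flox DEX. It read 3.45, 3.23 and 3.87 in GR iKO PBS and 3.17, 2.34, 1.92 and 2.49 in GR iKO DEX. All DEX arrays lay below all PBS arrays of their genotype, by a gap of 0.47 in Flox and 0.07 in GR iKO, where DEX replicate 1 was nearest. The difference was -1.12 (SE 0.28) in Flox and -1.04 (SE 0.28) in GR iKO. With single arrays left out the GR iKO difference ran from -1.27 to -0.85, and -0.85 is under the 2-fold call threshold. The interaction was 0.08 (SE 0.39), with a 95% interval of -0.78 to 0.94 that allows responses nearly 1 log2 unit apart. Its sign changed with single arrays left out, from -0.15 without GR iKO DEX replicate 1 to 0.27 without GR iKO DEX replicate 3. *Lyz2*, the myeloid lysozyme and not a member, fell with DEX by 1.38 (SE 0.31, adjusted p = 0.0372, below every PBS array in 3 of 3) in Flox and by 1.25 (SE 0.31, adjusted p = 0.0261, below every PBS array in 4 of 4) in GR iKO. The *Lyz2* call was lost in 11 of 26 other settings in Flox, each of the 3 Flox DEX arrays and Flox PBS replicates 2, 3 and 4 left out among them, and in 7 of 26 in GR iKO, GR iKO DEX replicates 2 and 3 and GR iKO PBS replicate 4 left out among them. Of 6 macrophage genes none was called, with medians of -0.68 in Flox and -0.57 in GR iKO; the most abundant, *C1qa*, read 0.34, 1.24, 1.58 and 0.99 in Flox PBS and 0.48, 0.57 and 0.08 in Flox DEX. The summed macrophage level was 2.26, 3.10, 3.39 and 2.86 in Flox PBS and 2.26, 2.45 and 1.88 in Flox DEX. It was 3.17, 2.39 and 3.17 in GR iKO PBS and 2.64, 2.43, 2.19 and 2.54 in GR iKO DEX. The distal colon sum was 3.64 to 4.45 in Flox PBS and 2.32 to 3.46 in Flox DEX, with no overlap. The smooth muscle sum was 8.38 to 8.61 in Flox PBS and 8.90 to 9.24 in Flox DEX, with 6 of 6 genes higher (median 0.61). In GR iKO the PBS and DEX arrays overlapped for both of the latter sums. The part of these sums in the *Lyz1* and *Lyz2* differences was not tested. Probe sequences were not at hand, so how far the *Lyz1* probe reads *Lyz2* RNA was not tested either. The *Lyz1* window (chr10:117292869-117293118, - strand) held AGAACA at -164:
Lyz1: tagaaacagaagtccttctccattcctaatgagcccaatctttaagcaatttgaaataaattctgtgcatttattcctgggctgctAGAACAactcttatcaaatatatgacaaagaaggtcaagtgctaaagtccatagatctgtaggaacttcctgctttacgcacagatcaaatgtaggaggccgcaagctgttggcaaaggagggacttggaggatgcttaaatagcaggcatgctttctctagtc

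*Reg3b* (A_51_P169671) and *Reg3g* (A_51_P354126), the antibacterial lectins, varied more within groups than any other member. *Reg3b* read -6.44, 1.20, -4.26 and -6.15 in Flox PBS, 2.99, 2.45 and 4.04 in Flox DEX, 6.34, -7.17 and -3.72 in GR iKO PBS, and -5.55, -0.06, -4.12 and 1.98 in GR iKO DEX. It was not well above background on Flox PBS replicates 1 and 4, GR iKO PBS replicate 3 and GR iKO DEX replicate 1, and *Reg3g* was not on Flox PBS replicate 3. *Reg3g* read -4.10, -0.64, -6.98 and -3.15 in Flox PBS, -0.94, -1.56 and 1.58 in Flox DEX, 4.31, -4.01 and -2.15 in GR iKO PBS, and -2.74, -0.82, -3.13 and 0.67 in GR iKO DEX. For both genes GR iKO PBS replicate 2 was the highest array, and Flox PBS replicate 2 and GR iKO DEX replicates 2 and 4 stood above the rest of their groups. The *Reg3b* SD was 3.54 in Flox PBS, 0.81 in Flox DEX, 7.02 in GR iKO PBS and 3.50 in GR iKO DEX. With DEX in Flox, the lowest *Reg3b* array lay 1.26 above the highest PBS array. The difference of the means, 7.07 (SE 2.93), rests on the 2 Flox PBS values at background, so its size was not measured. For *Reg3g* the groups overlapped, and the difference of 3.41 (SE 1.90, 95% interval -0.74 to 7.56) was 2.33 without Flox PBS replicate 3, its array at background. With DEX in GR iKO the differences were -0.42 (SE 2.93) and -0.88 (SE 1.90), smaller than the spread. Leaving out GR iKO PBS replicate 2 turned them to 3.51 and 1.58, and at the other end of the single-array range they were -3.25 and -2.58. The *Reg3b* values in GR iKO and between genotypes also include arrays at background. Under PBS the genotypes differed by 2.40 (SE 2.93) for *Reg3b*, by -1.53 without GR iKO PBS replicate 2, and by up to 5.23 with another array left out. The 2 genes followed each other over the 14 arrays (r = 0.85, rho = 0.88), within groups (r = 0.87) and without GR iKO PBS replicate 2 (r = 0.79).

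**Figure D4:**
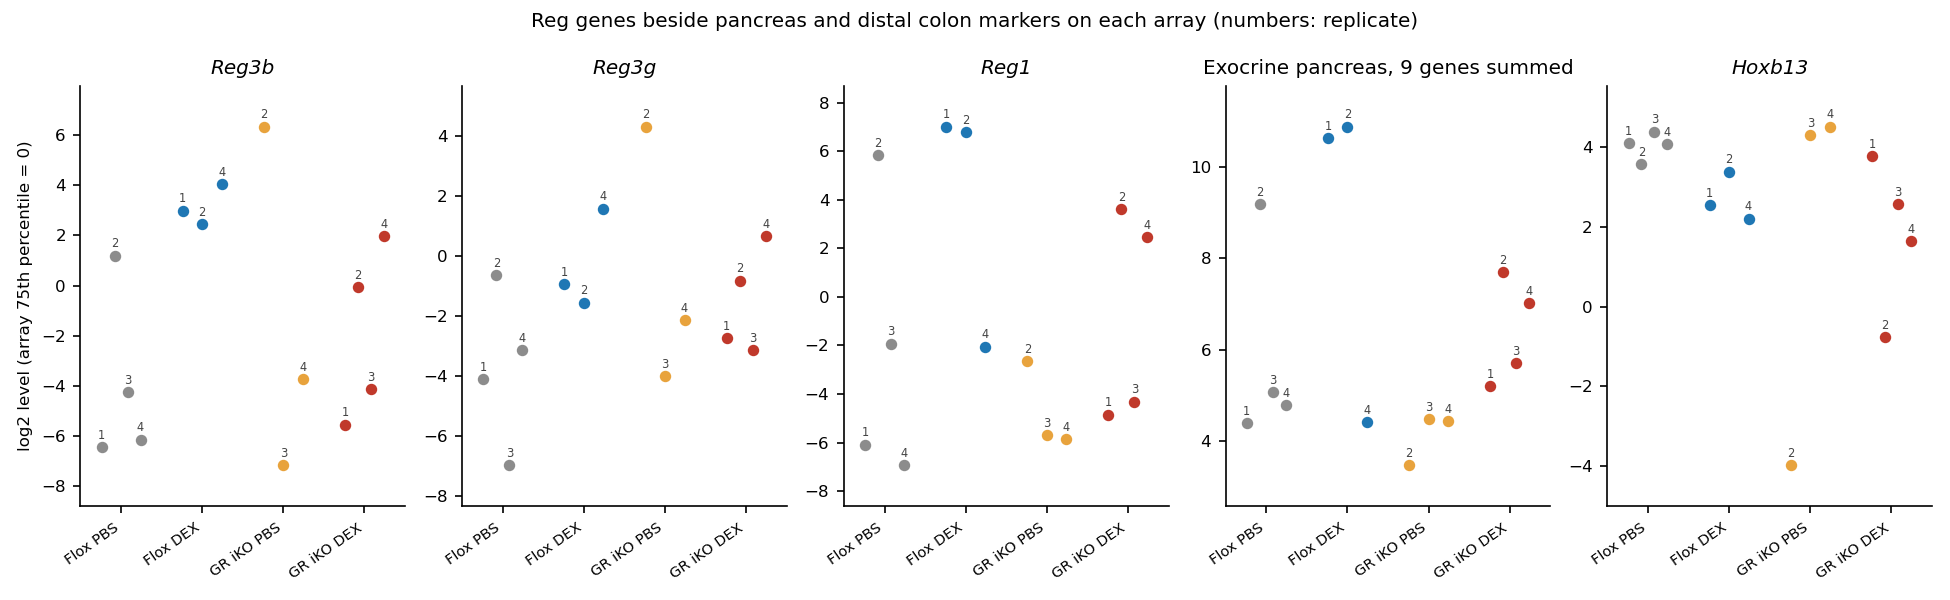
Log2 levels of *Reg3b*, *Reg3g* and *Reg1*, the summed log2 level of 9 exocrine pancreas genes and the level of *Hoxb13* on each array, by group with replicate numbers. *Reg1* is high on the 5 arrays with the highest pancreas sums, while *Reg3b* is also high on Flox DEX replicate 4 (4.04) and GR iKO PBS replicate 2 (6.34), where the pancreas sums are 4.40 and 3.46.

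The plot of Reg genes beside tissue markers shows which markers moved with them. *Reg1*, a regenerating protein made in the pancreas, read 7.02 and 6.80 on Flox DEX replicates 1 and 2, 5.84 on Flox PBS replicate 2 and 3.62 and 2.46 on GR iKO DEX replicates 2 and 4, the 5 arrays with the highest pancreas sums, and -1.92 or less on the other 9. *Reg3b* was at -0.06 or above on the same 5 arrays, and also on Flox DEX replicate 4 and GR iKO PBS replicate 2, whose pancreas sums of 4.40 and 3.46 were in the low range. *Hoxb13* was at 2.21 and -3.98 on those 2 arrays. *Reg4*, a colon secretory cell gene, read 3.64, 4.24, 5.60 and 3.92 in Flox PBS, 0.47, 1.59 and 0.45 in Flox DEX, 0.81, 4.36 and 4.89 in GR iKO PBS, and 4.02, -0.15, 2.96 and 1.20 in GR iKO DEX. Except on Flox PBS replicate 2, the arrays high in *Reg3b* were thus low in *Reg4*. The part of pancreas RNA or of position along the colon in the *Reg3b* and *Reg3g* values was not tested.

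The promoters of *Reg3b* (chr6:78370635-78370884, + strand) and *Reg3g* (chr6:78468875-78469124, - strand) are printed because the 2 genes moved together and their windows resemble each other.
Reg3b: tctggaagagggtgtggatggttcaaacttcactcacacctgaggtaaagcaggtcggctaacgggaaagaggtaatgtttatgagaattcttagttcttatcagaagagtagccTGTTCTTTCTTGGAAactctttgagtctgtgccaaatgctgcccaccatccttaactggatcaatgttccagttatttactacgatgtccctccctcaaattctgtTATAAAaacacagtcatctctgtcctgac
Reg3g: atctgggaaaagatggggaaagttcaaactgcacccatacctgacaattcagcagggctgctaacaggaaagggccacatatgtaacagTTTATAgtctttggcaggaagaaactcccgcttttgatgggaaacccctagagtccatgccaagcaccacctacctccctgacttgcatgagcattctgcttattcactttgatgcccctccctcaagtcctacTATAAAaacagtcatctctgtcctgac
Both hold TATAAA close to the start, at -29 in *Reg3b* and -27 in *Reg3g*, and share their last 20 bases exactly, the longest run shared by any 2 of the 7 distinct windows. The *Reg3b* window also holds TGTTCT at -135, followed at -129 by TTCNNNGAA, and the *Reg3g* window holds TTTATA at -161.

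Other genes of these pathways were taken from lists, 181 measured genes in all beside the glucocorticoid response list. With DEX in Flox 1 of them rose and 3 fell (2.21%, against 1.57% of all probes), and in GR iKO 6 rose and 7 fell (7.18%, against 5.05%). Between genotypes limma called 0 under PBS, 0 under DEX and 0 in the interaction (0% each), where 18, 19 and 28 had an unadjusted p under 0.05. Taken here without adjustment, the t-test named in the study's methods gave 2 genes at 2-fold under PBS and 3 under DEX. For its own array counts the study states q < 0.05. The Flox count was 2 without Flox DEX replicate 1, 13 without Flox PBS replicate 1 and 8 without GR iKO PBS replicate 2. The GR iKO count was 22 without GR iKO PBS replicate 2, 8 without GR iKO PBS replicate 4 and 8 without GR iKO DEX replicate 1 or 3. A count of 1 in place of 0 came without Flox DEX replicate 4 for both genotype comparisons and the interaction, and without GR iKO PBS replicate 2 for the interaction.

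**Figure D5:**
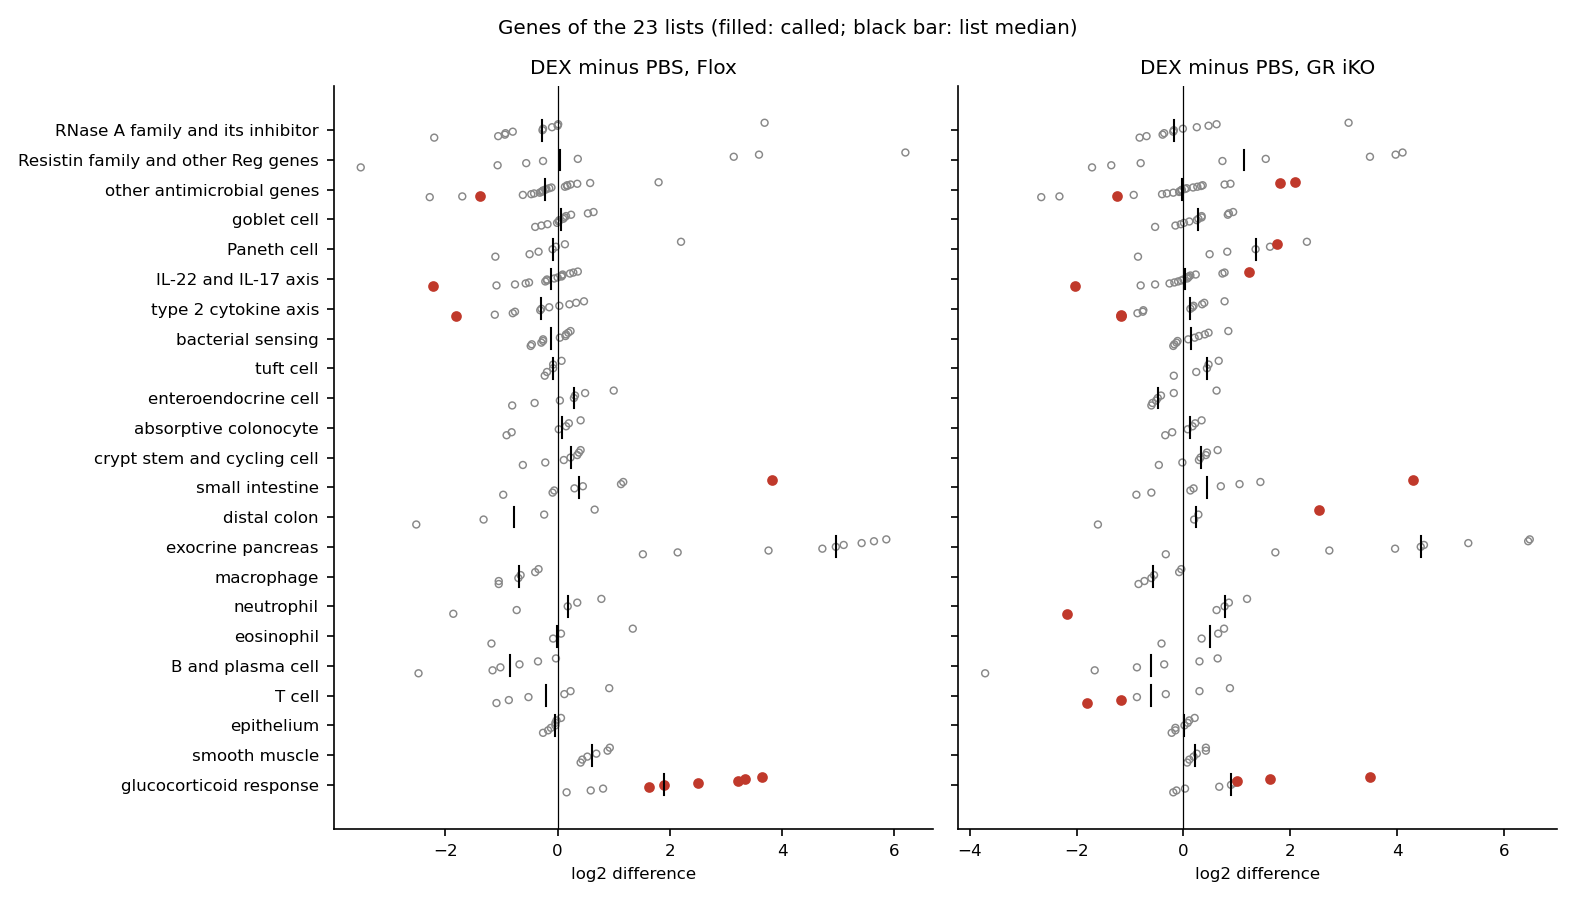
Log2 difference with DEX of every measured gene of the 23 lists in Flox and in GR iKO, 1 point per gene, filled where called, with the list median as a black bar. *Lct* lies at 3.82 and 4.30, *Il1b* at -2.22 and -2.02, and exocrine pancreas genes have medians of 4.96 and 4.44 with no call.

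Among other antimicrobial genes, 2 of 21 rose and 1 fell with DEX in GR iKO. *Lcn2*, which binds bacterial siderophores, rose by 2.09 (SE 0.53, adjusted p = 0.0275) from -4.37, -6.54 and -6.07 to -3.69, -4.31, -3.62 and -2.67, higher in 4 of 4 arrays; only 1 of the 3 PBS arrays was well above background, so the size was not measured. *Duoxa2*, the maturation factor of an epithelial peroxide-making oxidase, rose by 1.81 (SE 0.50, adjusted p = 0.0373) from 1.85, 0.17 and 0.70 to 2.29, 2.88, 3.21 and 2.47, in 4 of 4 arrays. Each of these calls was lost in 10 of 25 other settings: without GR iKO PBS replicate 3 or 4 and GR iKO DEX replicate 1, 3 or 4 for both genes, and without GR iKO DEX replicate 2 and Flox DEX replicate 2 for *Duoxa2*. *Lyz2* was the gene that fell. *Zg16*, a bacteria-binding lectin and the most abundant of the list, read 8.43, 8.64 and 8.73 in GR iKO PBS and 8.49, 8.64, 8.69 and 8.37 in GR iKO DEX. Of 7 Paneth cell genes *Defa20*, an alpha-defensin, rose by 1.75 (SE 0.46, adjusted p = 0.0320) in GR iKO, higher in 4 of 4 arrays, a call lost in 12 of 25 settings, GR iKO PBS replicates 3 and 4 and GR iKO DEX replicates 1, 2 and 3 left out among them, and none was called in Flox. It was well above background on 1 of the 3 GR iKO PBS arrays, so the size was not measured. Of the 7 genes 6 were higher and 1 lower with DEX in GR iKO, with a median of 1.35, against -0.09 in Flox. Only 3 to 5 of the 7 were well above background on any array, so these medians rest partly on values at background and nothing is read from them.

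None of 11 measured RNase A family genes and partners was called. *Plxnb2*, a receptor for angiogenin, differed with DEX by -0.27 (SE 0.11) in Flox and -0.01 (SE 0.11) in GR iKO, and *Rnh1*, the ribonuclease inhibitor that binds angiogenin, by 0.01 (SE 0.12) and -0.19 (SE 0.12). *Rnase1*, the pancreatic ribonuclease, had group means of -0.69, 3.00, -3.41 and -0.32 in Flox PBS, Flox DEX, GR iKO PBS and GR iKO DEX. It read 6.77 and 6.79 on Flox DEX replicates 1 and 2 and 5.14 on Flox PBS replicate 2, the arrays with pancreas sums of 10.64, 10.89 and 9.19; the part of pancreas RNA in these means was not tested. None of 8 resistin family and other Reg genes was called either; *Reg4* differed by -3.51 (SE 1.07, adjusted p = 0.101) in Flox.

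Cytokine lists that are known to act on these genes held a few calls. Of 16 genes of the IL-22 and IL-17 axis, *Il1b*, an inflammatory cytokine, fell with DEX by 2.22 (SE 0.39, adjusted p = 0.0132, lower in 3 of 3 arrays) in Flox and by 2.02 (SE 0.39, adjusted p = 0.00886, 4 of 4) in GR iKO. It was well above background on 2 of 3 Flox DEX and 2 of 4 GR iKO DEX arrays, so the sizes were not measured. The GR iKO call was lost in 3 of 26 settings, with a value as near 0 as -0.61. The Flox call was lost without Flox DEX replicate 1 and in 4 other settings, with a difference of 0.01 under normexp background correction. For *Il6ra*, an IL-6 receptor chain, the 2 probes went opposite ways in GR iKO: A_51_P415855 was called at 1.23 (SE 0.16, adjusted p = 0.00205) and A_51_P415863 was not, at -0.47 (SE 0.18, adjusted p = 0.111), so no change of the gene is read from them. Of 11 type 2 cytokine genes, *Ccl24*, an eosinophil chemokine, fell by 1.82 (SE 0.20, adjusted p = 0.00164) in Flox and by 1.16 (SE 0.20, adjusted p = 0.00570) in GR iKO, below every PBS array in 3 of 3 and 4 of 4. Each call was lost in 2 of 26 settings, normexp background correction among them, with values as near 0 as -0.58 in Flox and -0.60 in GR iKO. The other *Ccl24* probe was at -1.99 (SE 0.20, adjusted p = 0.000837) in Flox and at -0.69 (SE 0.20, adjusted p = 0.0408), under 2-fold, in GR iKO. *Il33*, an alarmin of stromal and epithelial cells, fell by 1.17 (SE 0.19, adjusted p = 0.00420) in GR iKO, a call lost in 4 of 26 settings, GR iKO PBS replicate 2 left out among them. None of 10 bacterial sensing genes was called; their most abundant gene, *Nfkbia*, differed by 0.15 (SE 0.17) and -0.17 (SE 0.17).

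Calls in the cell type lists fell on a few genes, while several lists moved as a whole without a call. With DEX 9 of 9 exocrine pancreas genes were higher in Flox and 8 of 9 in GR iKO. All 6 smooth muscle genes were higher and all 6 macrophage genes lower in both genotypes. Of 7 enteroendocrine genes 6 were lower in GR iKO and 2 in Flox. *Lct*, the brush-border lactase, rose with DEX by 3.82 (SE 0.51, adjusted p = 0.00369) in Flox and by 4.30 (SE 0.51, adjusted p = 0.00119) in GR iKO, from -5.56, -5.57 and -5.32 to -1.92, -1.16, -0.75 and -0.90 in the latter, while the other 7 small intestine genes were not called. *Lct* was well above background on 3 of 4 Flox PBS and 1 of 3 GR iKO PBS arrays and on all DEX arrays, so the size of its rise was not measured. In GR iKO *Hoxd12* of the distal colon list rose by 2.53 (SE 0.64, adjusted p = 0.0276), a call lost in 11 of 25 other settings; it was well above background on 1 of 3 PBS and 4 of 4 DEX arrays. *Csf3r*, a neutrophil receptor, fell by 2.18 (SE 0.57, adjusted p = 0.0299), a call lost in 8 of 24 settings with a value of -0.01 under normexp background correction; it was well above background on 2 of 3 PBS and 0 of 4 DEX arrays. The sizes of these 2 changes were therefore not measured. The other 4 of 5 neutrophil genes were higher, the median of the 5 was 0.77, and the mean summed level was -3.27 with PBS and -2.52 with DEX, but only 1 or 2 of the 5 were well above background on each GR iKO array, so no direction is read for the list. *Cd3g*, a T cell receptor chain, fell by 1.16 (SE 0.29, adjusted p = 0.0257), a call lost in 9 of 26 settings. For *Cd8a*, a T cell coreceptor, probe A_51_P345121 was called at -1.80 (SE 0.41, adjusted p = 0.0170), a call lost in 4 of 26 settings, with 3 of 4 DEX arrays well above background, while A_52_P150547 was at -0.03 (SE 0.29, adjusted p = 0.959) and A_52_P443334 at -0.28 (SE 0.21, adjusted p = 0.428). The 6 T cell genes had a median of -0.60, with 2 higher and 4 lower. GR iKO PBS replicate 2 was among the arrays whose removal lost each of these 4 calls. For *Hoxd12*, *Csf3r* and *Cd3g* so were GR iKO PBS replicate 4 and GR iKO DEX replicates 1, 2 and 3. No gene was called in the tuft cell (5 measured), enteroendocrine (7), absorptive colonocyte (6), crypt stem and cycling cell (7), exocrine pancreas (9), macrophage (6), eosinophil (4), B and plasma cell (6), epithelium (7) or smooth muscle (6) lists. The most abundant of each differed with DEX in GR iKO by 0.47 (*Dclk1*), -0.58 (*Pyy*), 0.34 (*Guca2a*), 0.64 (*Mki67*), 2.73 (*Clps*), -0.55 (*C1qa*), 0.76 (*Siglecf*), 0.64 (*Jchain*), 0.11 (*Krt8*) and 0.19 (*Cnn1*) in that order. Most of the B and plasma cell list went the other way from *Jchain*: 2 of the 6 genes were higher and 4 lower, with a median of -0.62.

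Genes most like *Itln1* and *Ang4* were sought, the members themselves left out, among 22160 named probes well above background on at least 10 arrays, by Pearson r. Over the 14 arrays the closest non-members to *Itln1* were *Olfr782* (0.920), *Plat* (0.918), *Krtap21-1* (0.904), *Cdk17* (0.896), *Col6a5* (0.890) and *Hspb1* (0.890). Among the closest non-members to *Ang4* were *Cebpb* (0.928), *Ndst4* (0.908), *Inha* (0.901), *Lypd2* (0.886) and *Mst1* (0.883). With DEX in GR iKO *Hspb1*, a small heat shock protein, differed by 1.28 (SE 0.19) and *Plat*, the tissue plasminogen activator, by 0.76 (SE 0.14). Genes picked for following *Itln1* or *Ang4* were chosen on these same arrays, so their differences are a description with no test. As deviations from the group means, the non-members closest to *Ang4* were *Fam221a* (0.952), *Hspa5* (0.950), *Gmppb* (0.932), *Sec23b* (0.917), *Lap3* (0.917) and *Slc7a11* (0.912). *Hspa5* is the main chaperone of the endoplasmic reticulum and *Sec23b* a coat protein of vesicles that leave it. With DEX in GR iKO they differed by -0.44 and -0.41, *Gmppb* by -0.36, *Lap3* by -0.29 and *Slc7a11* by -0.14. *Fam221a* differed by 0.56, and none of them was called, while *Ang4* was higher. These r are the highest among 22160 probes, and no theme is read from the names. In the same measure those closest to *Itln1* were *Cars* (0.935), *Krtap21-1* (0.915), *Fbn2* (0.913), *Acot7* (0.883), *Nectin1* (0.878) and *Frmd3* (0.868).

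The probes called with DEX in GR iKO were unevenly placed on the array. Of the 2079, 71.5% lay in rows 355 to 532 of its surface, which holds 33% of the probes, and 84.4% were higher; the share that was higher was 63.9% after quantile normalization and 56.3% of 423 without that region. Of the member probes, *Rnase4* A_51_P237383 lies in that region, and the other 9 do not. The differences of the 9 keep their sign with DEX in GR iKO under each normalization and background setting tried, except *Reg3b*, which ranges from -1.05 to 0.19. Calls with DEX in GR iKO that rest on a probe in that region are those of *Lcn2*, *Duoxa2*, *Defa20*, *Il6ra*, *Hoxd12* and *Csf3r*, that of *Fkbp5* probe A_52_P481493 and, among the genes most like *Itln1* or *Ang4*, *Olfr782*, *Frmd3*, *Ndst4*, *Inha*, *Lypd2* and *Mst1*. The first *Nr3c1* probe printed lies there too, as do those of *Cars*, *Hspa5*, *Gmppb* and *Lap3* and of several genes named without a call.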

How the data were processed

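The authors scanned Agilent 1-color mouse arrays and made the intensity values with Agilent Feature Extraction, as deposited in the array files, which subtract background and correct for spatial trend. The authors' log2 table, as deposited, was quantile normalized, per the methods with Partek 6.6; it differed from a quantile normalization of the array files by at most 0.0432.

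The array files were used here. Processed signal was put on log2, the array's 75th percentile subtracted, outlier spots set missing and the 245 repeated probes averaged, which left 41174 probes from 43379 spots. RefSeq accessions gave 28223 probes 1 symbol. limma 3.58.1 in R 4.3.3 fitted group means over all 14 arrays, with Benjamini-Hochberg adjustment over all probes. Tables and figures came from Python 3.11.15, pandas 2.3.3, numpy 2.4.6, scipy 1.17.1 and matplotlib 3.10.9.

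Members and lists were chosen with earlier results of these data known. Where a gene had several probes, the most abundant was used. Named from each list are the called genes, or the most abundant gene where none was called; a few more are named for their role or as tissue markers. Other background corrections, normalizations, filters, models and single arrays left out were tried, and the counts they gave are reported separately.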

Additional observations from a re-analysis of the deposited data

Results flagged for a closer look

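Of 94 groups of 4 arrays looked at, 5 held an array far from the other 3, and chance flags about 1 in 20 groups. The value given is the share of the group's range that separates that array from the next. No member probe was among them.

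Csf3r in Flox PBS: 0.944. Replicate 1 read -7.33, the others -5.20, -5.13 and -5.25.

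Jchain in Flox PBS: 0.855. Replicate 1 read 5.21, the others 6.29, 6.18 and 6.13.

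Cnn1 in GR iKO DEX: 0.83. Replicate 1 read 6.76, the others 7.52, 7.58 and 7.44.

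Tsc22d3 in Flox PBS: 0.853. Replicate 3 read 1.14, the others 1.64, 1.56 and 1.59.

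Mt2 in GR iKO DEX: 0.839. Replicate 4 read 6.54, the others 5.83, 5.71 and 5.70.

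Fkbp5 and Sgk1 had a tested interaction, the response in GR iKO minus that in Flox, of -2.7 for Fkbp5 and -2.54 for Sgk1. The calls were lost in 17 and 16 of 23 other settings, and the other 2 Fkbp5 probes, at -2.47 and -1.62, were not called.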

How the results depend on the processing

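Probes called with DEX in Flox were 646. Normexp background correction gave 59, normexp fitted without spots below their background 309, a replicate block 401, the methods' t-test 0 after adjustment and 1456 without it, and single arrays left out 222 to 843.

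Probes called with DEX in GR iKO were 2079. Normexp gave 44, normexp without those spots 401, the array without its last part (from row 355) 423, the adjusted t-test 694, and single arrays left out 1443 to 2385.

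Between genotypes under PBS 53 were called. Normexp gave 2, normexp without those spots 5, the array without its last part (from row 355) 18, a block 24, only the groups compared 16, the t-test 0 adjusted and 704 unadjusted, and single arrays left out 22 to 179.

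Between genotypes under DEX 66 were called. The same settings gave 6, 28, 39, 26 and 12, the t-test 0 adjusted and 657 unadjusted, and single arrays left out 19 to 138.

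In the interaction 97 were called. Normexp gave 4, quantile normalization 57, quantile within array parts 154, the array without its last part (from row 355) 9, the authors' log2 values 56, a filter on dim probes 164, a block 39, and single arrays left out 37 to 213.

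Pathway and cell type genes called with DEX in Flox were 4. Normexp gave 1, the t-test 0 adjusted and 16 unadjusted, and single arrays left out 2 to 13. In GR iKO 13 were called. Normexp gave 1, normexp without those spots 7, the array without its last part (from row 355) 7, the adjusted t-test 3, and single arrays left out 8 to 22. Between genotypes 0 were called. The unadjusted t-test gave 2 under PBS and 3 under DEX, and single arrays left out 0 to 1. In the interaction 0 were called, with 1 for quantile within array parts and 0 to 1 for single arrays left out.

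Normexp was unstable on Flox DEX replicate 1, where 6 spots below their background moved the fitted background mean from 3.18 to -510. On Flox PBS replicate 2, 3 such spots moved it from 6.97 to -40.8, and on GR iKO DEX replicate 3, 2 moved it from 4.07 to 3.7.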
